A study of Rattus norvegicus with 30 samples.

Results

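The H3K4me3 intervals of the control embryo cortex that carried no H3K27me3 were described across the ChIP-seq peak lists of 5 histone antibodies and both maternal diets. A member is a distinct interval of the control H3K4me3 list, 600 to 1999 bp wide, that no control H3K27me3 interval overlapped and that an HFD H3K4me3 interval overlapped by at least 1 bp. There were 5457 such intervals among the 113056 distinct intervals of the control H3K4me3 list (4.83%, 95% Wilson interval 4.70% to 4.95%). They made up 17.1% of the 32000 intervals of that width that were also found in HFD, and the other 26543 carried control H3K27me3.

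Chromatin came from the brain cortex of Wistar rat embryos at E14.5. The dams had eaten either normal chow (control) or a high-fat diet with 60% of its calories from fat (HFD) from weaning on, before and during gestation. Chromatin was precipitated with antibodies to H3K4me3, H3K27me3, H4K16Ac, total H3 and pan H4, with 3 libraries for each antibody and diet and 30 in all. The diet was given to the dam and not to the embryo, the cortex is a mixture of progenitors and young neurons, and neither the sex of the embryos nor the litters behind each library are given in the labels. For molecular studies the authors pooled the frontal lobe cortices of a whole litter as an independent replicate. The labels of replicate 3 of control total H3 name both diets, and the library was taken as control by its title and its peak list.

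H3K4me3, the trimethyl mark that the SET1 and MLL methyltransferase complexes place on histone H3, sits at the promoters of active and poised genes. H3K27me3 is placed by Polycomb repressive complex 2, whose catalytic subunit is EZH2, and accompanies gene silencing. Promoters with both marks are called bivalent and are typical of developmental regulators in embryonic cells, whereas H3K4me3 without H3K27me3 is typical of housekeeping and other constantly used promoters. H4K16Ac, which the acetyltransferase MOF places, loosens the packing of nucleosomes. Total H3 and pan H4 antibodies bind the core histones irrespective of their modification.

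Reads were aligned by the authors to the rat build rn6 and peaks were called with MACS2, with 1 list for the 3 libraries of an antibody and diet. How the 3 libraries were combined is not stated in the paper. With 1 list for each antibody and diet, the spread between replicates is unknown and no test between the diets was possible. Wilson intervals beside shares reflect counting error alone. For each peak a list gives a fold enrichment and a −log10 q, where q is the p-value corrected for the number of positions tested. The fold enrichment is the ratio of the pileup to the local background, with 1 added to both. In HFD H3K27me3 a pileup of 3 over a background of 0.351 is thus listed as 2.96. Fold enrichments of lists with unlike backgrounds are therefore not on 1 scale. In the narrow lists (H3K4me3, pan H4 and total H3) both values belong to the summit, and in the broad lists (H3K27me3 and H4K16Ac) they are averages over the region. The threshold was lenient, with q reaching 0.50 in the weakest peaks. The background pileup recovered from the peaks was lowest in HFD H3K27me3 (0.351 fragments per base) and highest in HFD pan H4 (1.80). In HFD it was 39.9% of its control value for H3K27me3, 87.7% for H3K4me3 and 108.6% to 111.1% for the other antibodies.

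The members were chosen by control H3K4me3 width, by the absence of control H3K27me3 and by the presence of HFD H3K4me3, so these values are a description. The members were close to the average control H3K4me3 interval in strength and weaker than the intervals with control H3K27me3. As the tissue is mixed, a weak mark in many cells and a strong mark in a few cannot be told apart. Their control H3K4me3 width had a median of 741 bp (quartiles 661 to 872 bp, widest 1966 bp), and their control fold enrichment had a median of 3.58 (quartiles 3.14 to 4.48, range 1.49 to 13.2). All 113056 control intervals had a median fold enrichment of 3.55 and a median −log10 q of 2.30. The 26543 intervals of the same width range with control H3K27me3 had a median width of 931 bp and a median fold enrichment of 7.76, while the free intervals not found in HFD had 3.14 and the free intervals narrower than 600 bp had 3.39. The −log10 q of the control H3K4me3 peak had a median of 2.56 in the members and of 19.8 in the intervals with H3K27me3, and it was at least 5 in 904 members (16.6%), in 79.8% of the intervals with H3K27me3 and in 27.4% of all control H3K4me3 intervals. A single summit was found in 5078 members, while 371 had 2 summits and 8 had 3.

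Intervals just inside and just outside the limits of the rule had overlapping ranges of strength. The 21 members of exactly 600 bp had a median control fold enrichment of 4.01, and the 28 intervals of 599 bp that missed the lower limit had 3.22, with ranges of 2.47 to 6.27 and 2.24 to 5.82. Only 2 intervals wider than the range were free of H3K27me3 and found in HFD, of 2128 and 2380 bp, with fold enrichments of 4.14 and 4.20. The members nearest to control H3K27me3 lay 5 bp from it, and the smallest overlap that excluded an interval was 1 bp. The 54 members with control H3K27me3 closer than 200 bp had a median fold enrichment of 3.08, and the 257 intervals that it overlapped by less than 200 bp had 3.28.

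**Figure D1:**
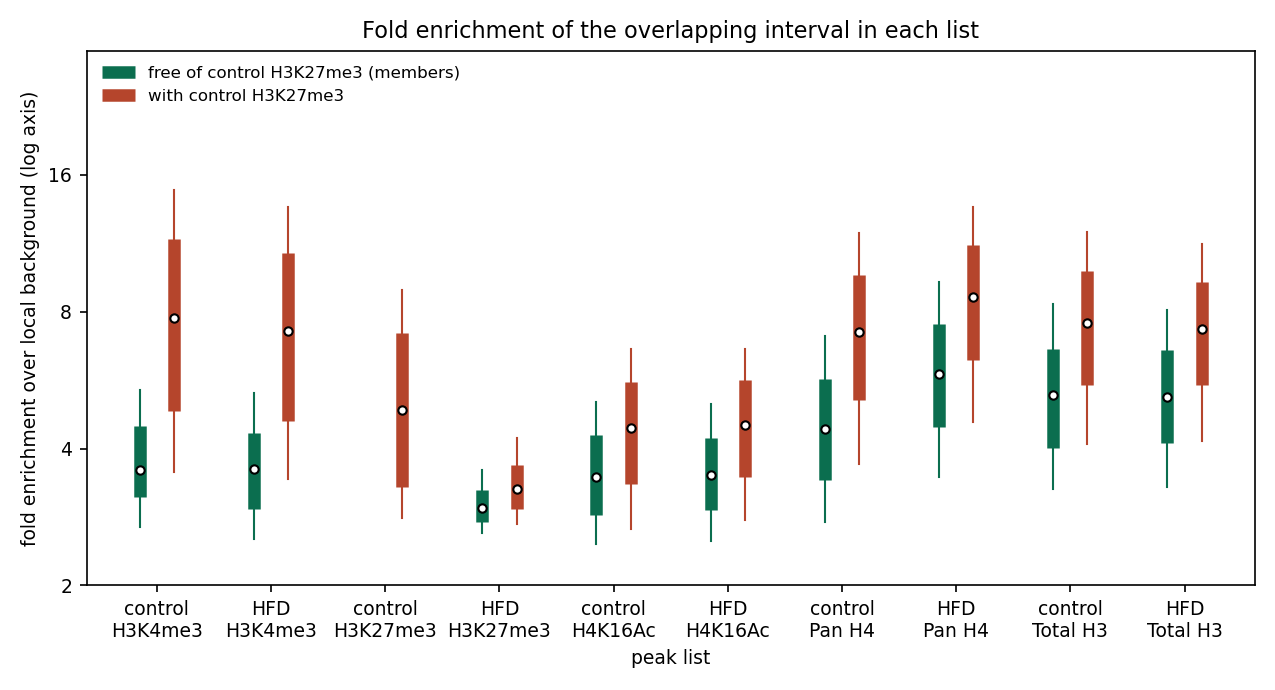
Fold enrichment over the local background (log axis) of the interval that overlaps an H3K4me3 interval, in each of the 10 peak lists, for the 5457 members (green) and the 26543 intervals with control H3K27me3 (red). Circles are medians, thick bars are quartiles and thin lines run from the 10th to the 90th percentile; the members' medians are lower in every list in which both were measured, and have no value in control H3K27me3 by the rule.

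Freedom from H3K27me3 went with low H3K4me3 enrichment. Among the 32000 intervals of 600 to 1999 bp found in HFD, the share free of control H3K27me3 was 49.5% (95% Wilson interval 47.5% to 51.6%, 1107 of 2235) at a control H3K4me3 fold enrichment under 3. It was 43.1% at 3 to 4, 30.7% at 4 to 5, 15.7% at 5 to 6 and 5.46% at 6 to 8. At a fold enrichment of 8 or more it was 0.349% (0.261% to 0.467%), or 45 of 12897 intervals. The strongest H3K4me3 intervals of this cortex thus almost always carried a control H3K27me3 call, and wide intervals did so too. The free share was 33.6% at 600 to 700 bp and 1.71% (36 of 2107) at 1500 bp or more. At a fold enrichment of 8 or more, the other control lists also overlapped nearly all intervals with control H3K27me3. The shares were 99.8% for total H3, 99.96% for pan H4 and 99.9% for H4K16Ac. Overlap of lists from a mixed tissue does not show both methyl marks on the same chromatin, and this was not tested.

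**Figure D2:**
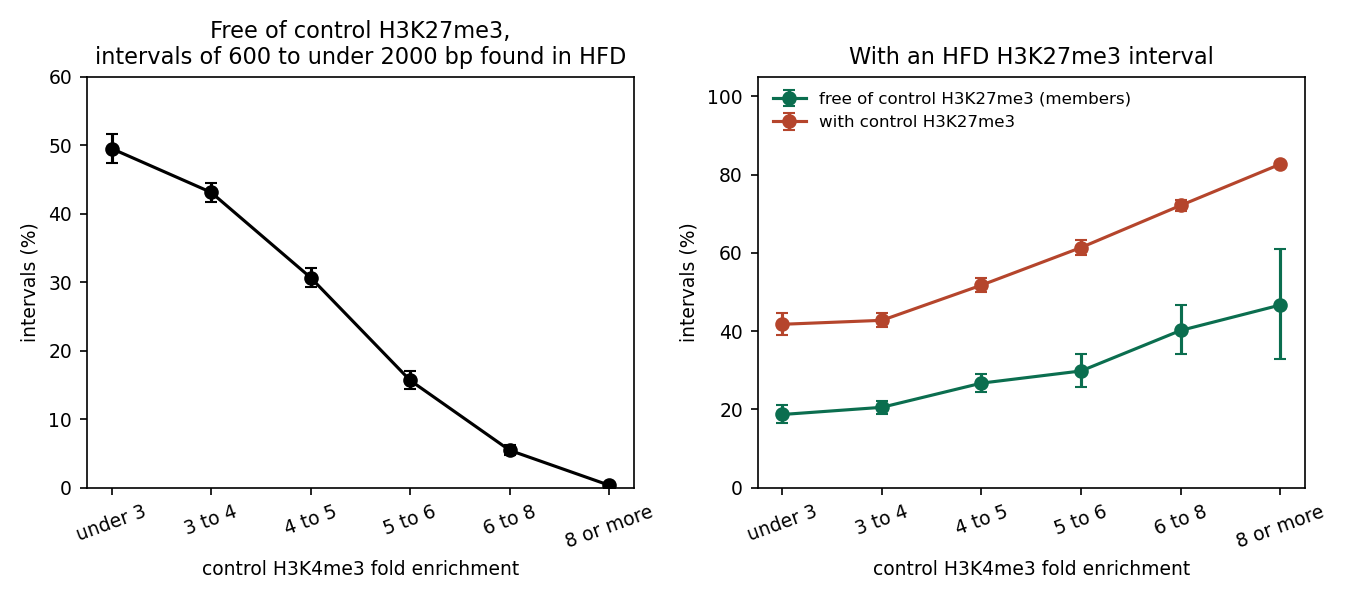
Left, the share (%) of H3K4me3 intervals of 600 to 1999 bp found in HFD that control H3K27me3 did not overlap, by class of control H3K4me3 fold enrichment. Right, the share (%) with an HFD H3K27me3 interval among members (green) and intervals with control H3K27me3 (red); bars are 95% Wilson intervals. The left curve drops from 49.5% to 0.349%, while both curves on the right rise with the class, the members' from 18.7% to 46.7%.

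The members lay apart from control H3K27me3 but not in regions empty of it. The distance from a member to the nearest control H3K27me3 interval had a median of 11994 bp (quartiles 5171 to 28619 bp) over the 5449 members on sequences that hold any. Control H3K27me3 lay within 2500 bp of 714 members (13.1%, 95% Wilson interval 12.2% to 14.0%) and within 500 bp of 126. The nearest other control H3K4me3 interval was at a median of 6711 bp, against 7587 bp for the intervals with H3K27me3 and 6120 bp for all control H3K4me3 intervals. Another member was found within 10000 bp of 320 members (5.86%), and the median distance to the next member was 128056 bp. The spacing of other sets of this size was not computed, so these values show neither clustering nor dispersion.

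H3K27me3 in HFD was the only reading of the Polycomb mark that the rule did not fix. An HFD H3K27me3 interval overlapped 1285 members (23.5%, 95% Wilson interval 22.4% to 24.7%). Over all 113056 control H3K4me3 intervals this share was 26.9%, which was close to that of the members. However, 45719 of those intervals carried control H3K27me3, which the rule barred from the members, so this background is not a like set. The share with HFD H3K27me3 was 69.3% in the intervals with control H3K27me3. It was 14.2% in the 17680 free intervals narrower than 600 bp and 8.95% in the 4807 free intervals of 600 to 1999 bp that HFD H3K4me3 did not overlap. Within a class of control H3K4me3 fold enrichment the members stayed below the intervals with control H3K27me3, with 18.7% (16.5% to 21.1%) against 41.8% (38.9% to 44.7%) under 3 and 46.7% (32.9% to 60.9%, 21 of 45) against 82.7% (82.0% to 83.3%) at 8 or more.

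These HFD H3K27me3 intervals were weak. Their median fold enrichment over members was 2.96 (quartiles 2.76 to 3.24), their median width was 447 bp and their median −log10 q was 0.850. At a q of at most 0.05, a limit chosen after seeing the data, HFD H3K27me3 overlapped 235 members (4.31%, 95% Wilson interval 3.80% to 4.88%), against 9.47% of all control H3K4me3 intervals. The HFD H3K27me3 list was weak as a whole, with 2.96 as its most frequent fold enrichment. In the whole list 24.1% of the intervals met this limit of q, and over members 18.3% did. A −log10 q of at least 5 was reached at 2 members, against 0.563% of all control H3K4me3 intervals. Of the 1285 intervals, 34 also overlapped a control H3K27me3 interval beside the member. The share of members with HFD H3K27me3 was 31.7% (24.3% to 40.3%, 40 of 126) within 500 bp of control H3K27me3, 20.1% (17.8% to 22.6%) at 5000 to 10000 bp and 24.1% (21.2% to 27.3%) at 50000 bp or more.

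Whether members gained H3K27me3 in HFD could not be read from this share, since the rule set it to 0 in control. With the diets exchanged in the rule, 10587 HFD H3K4me3 intervals were free of HFD H3K27me3, and control H3K27me3 overlapped 7010 of them (66.2%, 95% Wilson interval 65.3% to 67.1%). Absence in 1 diet and presence in the other was thus more frequent when HFD, whose H3K27me3 background was 39.9% of that of control, chose the intervals. Read depth was not measured, and its part in either share was not tested. Of the members, 1423 (26.1%) had an HFD H3K4me3 interval that met the rule in HFD too.

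Members with and without HFD H3K27me3 differed somewhat in the other lists. The 1285 members with it had a median control H3K4me3 fold enrichment of 3.96 and a median width of 759 bp, and the 4172 without it had 3.58 and 736 bp. Control H4K16Ac overlapped 97.7% (95% Wilson interval 96.8% to 98.4%) of the former and 95.01% (94.3% to 95.6%) of the latter. For control total H3 these shares were 93.3% (91.8% to 94.5%) and 88.7% (87.7% to 89.7%). In HFD the shares were 99.2% and 96.1% for H4K16Ac, 98.4% and 94.8% for pan H4, and 96.4% and 90.4% for total H3. The HFD H3K4me3 interval had a median width of 607 bp at members with HFD H3K27me3 and 488 bp at those without it. Its median fold enrichment was 3.85 and 3.52. The members with HFD H3K27me3 were thus stronger in H3K4me3 in both diets and listed more often for acetylation and for histone. They were also wider in H3K4me3, and this difference in width was larger in HFD.

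**Figure D3:**
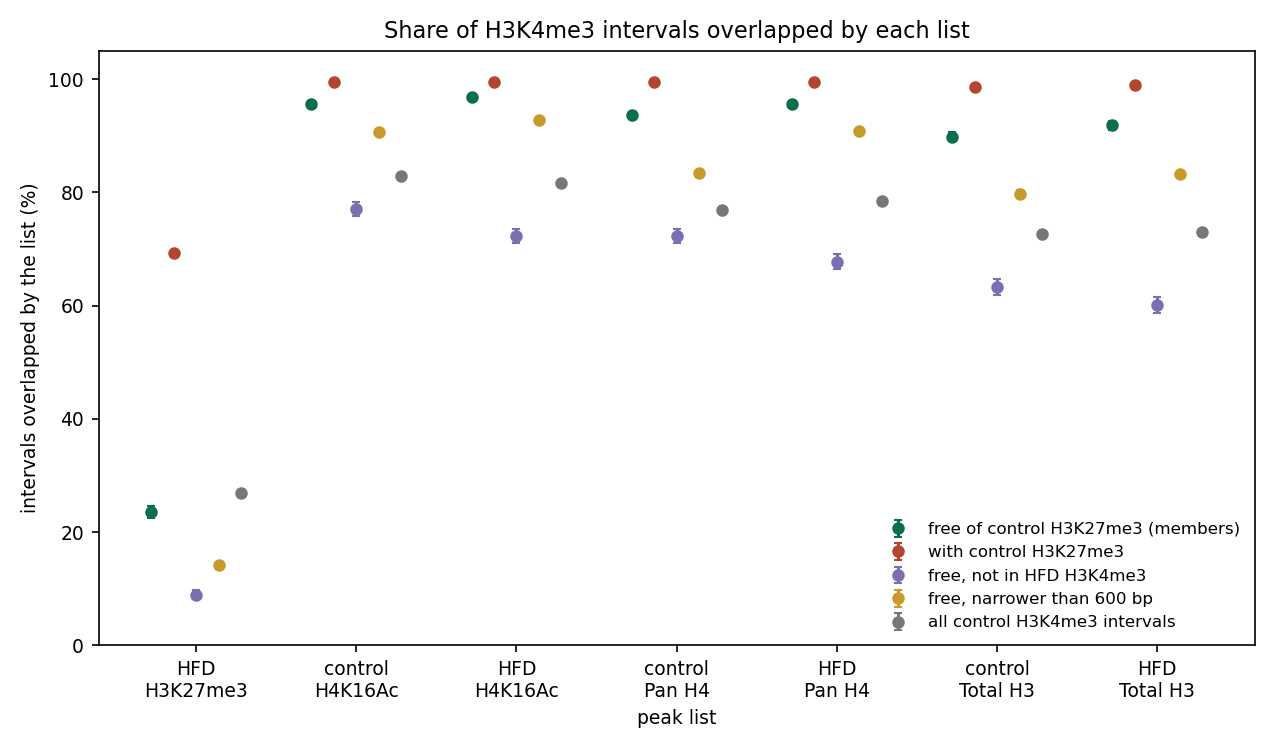
Share (%) of H3K4me3 intervals overlapped by at least 1 bp by each peak list, for the members, for intervals with control H3K27me3, for 2 other sets free of control H3K27me3 and for all control H3K4me3 intervals. Bars are 95% Wilson intervals, mostly smaller than the points; the members sit between 89.8% and 96.9% in the lists of H4K16Ac, pan H4 and total H3, and at 23.5% in HFD H3K27me3.

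H4K16Ac, the acetyl mark of open chromatin, was listed at nearly every member. A control H4K16Ac interval overlapped 5220 members (95.7%, 95% Wilson interval 95.1% to 96.2%), and an HFD interval overlapped 5286 (96.9%, 96.4% to 97.3%). Over all control H3K4me3 intervals these shares were 82.8% and 81.6%. The intervals with control H3K27me3 had 99.6% and 99.5%, so that at these lenient limits the members were above the background but not above those intervals. At a −log10 q of at least 5, control H4K16Ac overlapped 1530 of 5457 members and 33224 of 113056 control H3K4me3 intervals. In HFD these counts were 1741 and 36686. At this stricter limit the members were thus not above the background. In the weakest class of control H3K4me3, with a fold enrichment under 3, control H4K16Ac overlapped 89.9% (88.0% to 91.5%) of the members and 98.0% (97.0% to 98.6%) of the intervals with H3K27me3.

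The acetylated intervals were wider than the members. They come from a broad list and the members from a narrow list, so mark and kind of list cannot be told apart. Control H4K16Ac over members had a median width of 1122 bp (quartiles 783 to 2021 bp) and a median fold enrichment of 3.46, and 2524 of the 5220 overlapped members (48.4%) lay wholly within it, against 52.2% of all control H3K4me3 intervals that control H4K16Ac overlapped. In the intervals with H3K27me3, 41.5% lay wholly within control H4K16Ac, and the median fold enrichment was 4.43. Control H4K16Ac of 2000 bp or more overlapped 1336 members (24.5%, 95% Wilson interval 23.4% to 25.6%), against 21.1% of all control H3K4me3 intervals. In HFD this was 1225 members (22.4%, 21.4% to 23.6%), against 19.4%. Domains of 5000 bp or more lay over 83 members in control (1.52%) and 66 in HFD (1.21%), which was near the 1.59% and 1.35% of all intervals.

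Between the diets H4K16Ac moved little at the members. It was listed in control only at 96 members (1.76%) and in HFD only at 162 (2.97%), against 5.97% and 4.78% of all control H3K4me3 intervals. At the 5124 members listed in both diets, the median fold enrichment was 3.48 in control and 3.54 in HFD, with a median HFD over control ratio of 1.02 (quartiles 0.902 to 1.14). The ratio exceeded 1.5 at 99 members (1.93%) and was below 1/1.5 at 106 (2.07%), where the background was 1.77% and 2.13%. The median width ratio was 0.985. The HFD background was 108.6% of that of control.

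Pan H4 was listed at 5106 members in control (93.6%, 95% Wilson interval 92.9% to 94.2%) and at 5219 in HFD (95.6%, 95.1% to 96.1%), against 76.8% and 78.4% of all control H3K4me3 intervals. The intervals with control H3K27me3 had 99.4% and 99.5%. Pan H4 was found in control only at 144 members (2.64%, background 6.83%) and in HFD only at 257 (4.71%, background 8.41%). The fold enrichment was higher in HFD. At the 4962 members listed in both diets its median was 4.45 in control and 5.97 in HFD, with a median ratio of 1.32 (quartiles 1.08 to 1.62).

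A pan H4 ratio above 1.5 was found at 1678 members (33.8%) and a ratio below 1/1.5 at 92 (1.85%). Over all control H3K4me3 intervals listed in both diets these shares were 25.1% and 2.20%, and in the intervals with control H3K27me3 they were 12.9% and 0.719%. Within classes of control H3K4me3 fold enrichment the median ratio was 1.29 in members and 1.26 in intervals with H3K27me3 under 3, 1.33 and 1.27 at 3 to 4, and 1.32 and 1.24 at 4 to 5. It was 1.34 and 1.20 at 5 to 6, and 1.23 and 1.19 at 6 to 8. At 8 or more it was 1.19 over 43 members and 1.14 in the intervals with H3K27me3. A higher pan H4 fold enrichment in HFD was thus found in both sets and in every class. The HFD background was 109.6% of the control background, and its part in the ratio was not tested.

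Total H3 was listed at 4901 members in control (89.8%, 95% Wilson interval 89.0% to 90.6%) and at 5010 in HFD (91.8%, 91.1% to 92.5%), against 72.6% and 73.0% of all control H3K4me3 intervals. The intervals with control H3K27me3 had 98.7% and 99.0%. Of H4K16Ac, pan H4 and total H3, total H3 was most often missing at members. It was found in control only at 225 (4.12%, background 7.93%), in HFD only at 334 (6.12%, background 8.38%) and in neither at 222 (4.07%, background 19.0%). At the 4676 members listed in both diets the median fold enrichment was 5.33 in control and 5.33 in HFD, and the median ratio was 1.01 (quartiles 0.829 to 1.23). The ratio exceeded 1.5 at 416 members (8.90%) and was below 1/1.5 at 408 (8.73%), against 7.40% and 7.69% of all intervals. The total H3 level at members thus did not move in 1 direction between the lists. One control library carries labels of both diets and cannot be separated from its list.

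Most members were listed for all of these antibodies. All 3 of H4K16Ac, pan H4 and total H3 were present at 4676 members in control (85.7%) and at 4869 in HFD (89.2%). Over all control H3K4me3 intervals these shares were 64.6% and 67.5%. In all 6 lists were 4445 members (81.5%, 95% Wilson interval 80.4% to 82.5%), against 58.5% of all control H3K4me3 intervals. In none of the 6 lists were 21 members (0.385%), against 8.39%. Of the intervals with control H3K27me3, 97.5% were in all 6 lists and 0.0188% in none. A member was therefore rarely an H3K4me3 call alone at the lenient threshold, but members were in all 6 lists less often than those intervals.

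**Figure D4:**
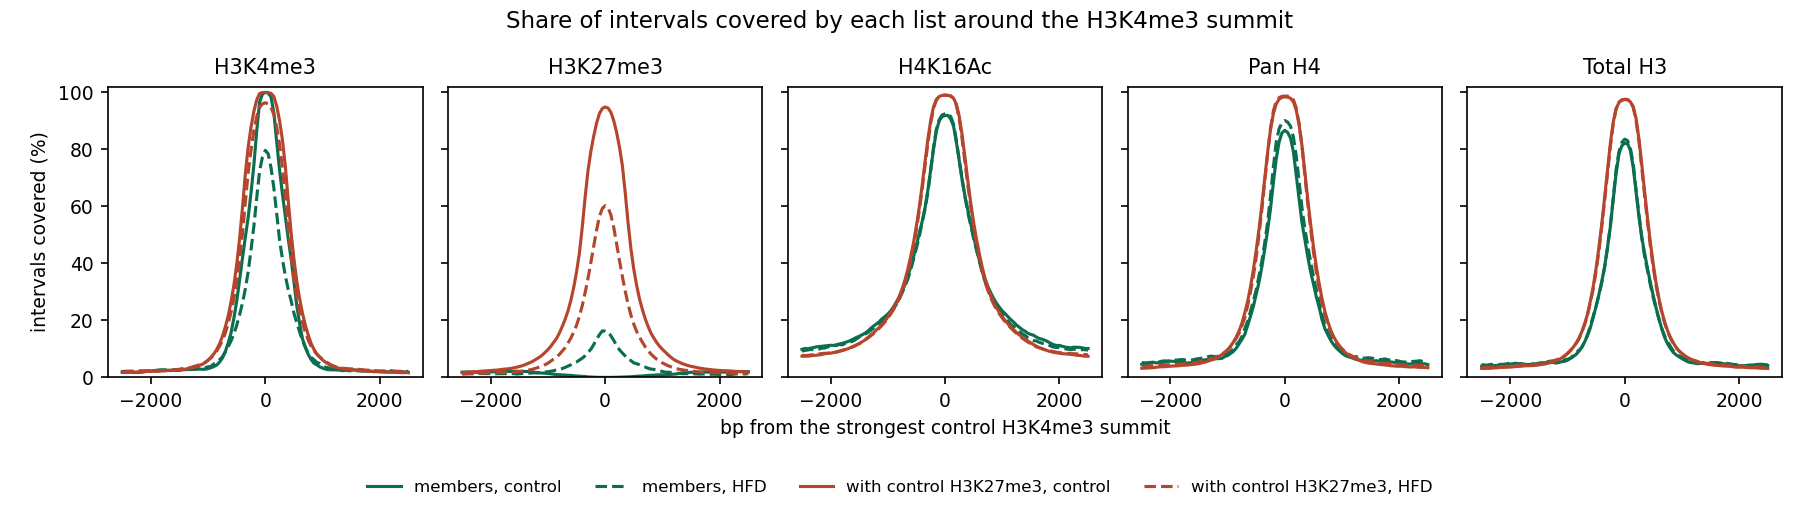
Share (%) of members (green) and of intervals with control H3K27me3 (red) covered by each list at a given distance in bp from the strongest control H3K4me3 summit, in control (solid) and HFD (dashed). At the summit HFD H3K4me3 covers 79.7% of the members and HFD H3K27me3 16.3%, and H4K16Ac falls off more slowly with distance than pan H4 or total H3. H4K16Ac is a broad list and pan H4 and total H3 are narrow lists, so mark and kind of list cannot be told apart.

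The marks were centred on the H3K4me3 summit. At the strongest control summit, control H4K16Ac covered 91.9% of the members, control pan H4 86.7% and control total H3 82.2%, and HFD H3K27me3 covered 16.3%. At 1000 bp on the higher-coordinate side H4K16Ac still covered 23.3%, pan H4 8.47% and total H3 6.62%. At 2500 bp on that side these were 10.1%, 4.47% and 4.18%. As H4K16Ac is a broad list and pan H4 and total H3 are narrow lists, mark and kind of list cannot be told apart here. Control H3K27me3, which was 0 at the summit by the rule, covered 0.898% of the members at 1000 bp and 2.03% at 2500 bp. The summits of pan H4 and H3K4me3 in control were a median of 97 bp apart at members and 65 bp apart in the intervals with H3K27me3, and those of total H3 and H3K4me3 were 91 and 57 bp apart.

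H3K4me3 itself was narrower in HFD at most members, and the direction turned with the diet that chose the intervals. The median width, 741 bp in control, came to 513 bp in HFD, with a median HFD over control ratio of 0.683 (quartiles 0.493 to 0.937), and 4376 members (80.2%) were narrower in HFD. The ratio was below 1/1.5 at 2618 members (48.0%) and above 1.5 at 161 (2.95%), against 13.2% and 9.73% of the 62064 control intervals found in HFD. Members had to be at least 600 bp wide in control and could have any width in HFD, so nothing was read from this difference. With the diets exchanged in the rule, the 10587 HFD intervals had a median ratio of 1.10 (quartiles 0.910 to 1.56), with medians of 770 bp in HFD and 700 bp in control. The HFD H3K4me3 interval was at least 600 bp wide at 2094 members (38.4%). At 89 members (1.63%) more than 1 HFD interval overlapped, and the strongest was taken.

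The fold enrichment of H3K4me3 did not move as the width did. Its median over members was 3.58 in control and 3.60 in HFD, with a median ratio of 0.979 (quartiles 0.805 to 1.20). It exceeded 1.5 at 399 members (7.31%) and was below 1/1.5 at 506 (9.27%), against 7.55% and 7.20% of the control intervals found in HFD. With the diets exchanged the median ratio was 1.00 (quartiles 0.840 to 1.22). Members chosen at a high control value were lower in HFD and those at a low control value were higher. The median ratio was 1.21 under a control fold enrichment of 3, 1.01 at 3 to 4, 0.862 at 4 to 5 and 0.709 at 8 or more. The intervals with control H3K27me3 went from 1.24 under 3 to 0.918 at 8 or more.

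The H3K4me3 summits of the diets were near each other but seldom at the same base. The strongest summits of control and HFD were a median of 111 bp apart at members (quartiles 41 to 302 bp), within 100 bp in 2583 members (47.3%) and within 500 bp in 4872 (89.3%). In the intervals with H3K27me3 the median was 43 bp.

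**Figure D5:**
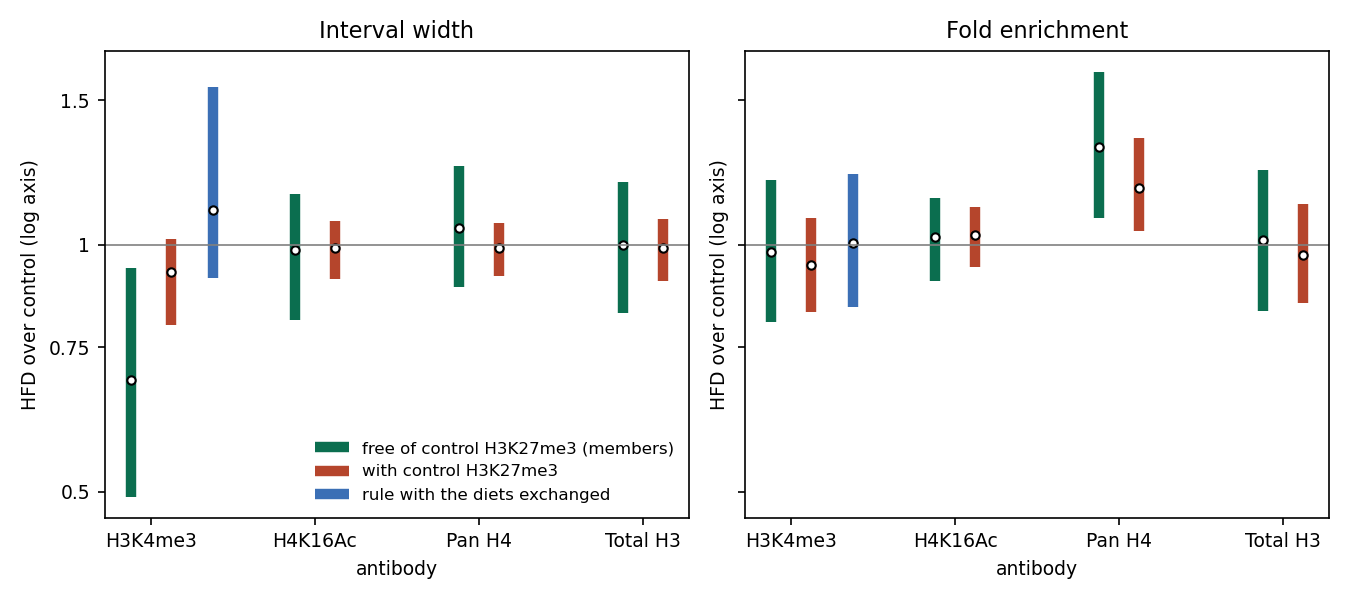
HFD over control ratio (log axis) of interval width (left) and of fold enrichment (right) for 4 antibodies, at intervals listed in both diets; circles are medians and bars are quartiles. Members are green, intervals with control H3K27me3 red, and the H3K4me3 intervals chosen with the diets exchanged blue. The members' H3K4me3 width ratio of 0.683 and the exchanged ratio of 1.10 lie on opposite sides of 1, and the pan H4 fold ratio of 1.32 is the highest fold ratio among the members.

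Members with more H3K4me3 also had more H4K16Ac, pan H4 and total H3. With the fold enrichment of HFD H3K27me3, Spearman's rho of control H3K4me3 was lower, at 0.27 over the 1285 members that it overlapped. Across members, Spearman's rho between the control H3K4me3 fold enrichment and that of control H4K16Ac was 0.50 (5220 members), that of control pan H4 0.51 (5106) and that of control total H3 0.50 (4901). Between the diets rho was 0.73 for H4K16Ac (5124 members), 0.63 for pan H4, 0.62 for total H3 and 0.37 for H3K4me3 (5457), the mark on whose lists the members were selected. These are descriptions across regions that share their libraries, their depth and the local background, and regions are not replicates.

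Individual members show the range. The member with the highest control H3K4me3 fold enrichment lay at chr8:97998226-97999001 (rn6, 776 bp), 147467 bp from control H3K27me3. Its H3K4me3 fold enrichment was 13.2 in control and 11.1 in HFD, with a −log10 q of 35.8 and 25.2. Pan H4 there was 15.4 in control and 18.5 in HFD, total H3 was 15.8 and 16.9, and H4K16Ac was 9.44 and 9.22. HFD H3K27me3 covered it with an interval of 1132 bp, at a fold enrichment of 3.91 and a −log10 q of 2.07, where control had none. Strong H3K4me3 and strong histone signal thus stood together at this interval.

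The next 3 members by control H3K4me3 fold enrichment were weaker in HFD. At chr4:183255540-183256202 H3K4me3 was 12.5 in control and 5.29 in HFD, pan H4 was 16.4 and 12.5, H4K16Ac was 10.2 and 8.34, and HFD H3K27me3 was listed with 326 bp and a fold enrichment of 3.03. At chr18:22219680-22220521 H3K4me3 was 11.3 and 9.61, H4K16Ac was 5.07 and 7.94, and no HFD H3K27me3 was listed. At chr4:102812593-102813870, a member of 1278 bp, H3K4me3 was 11.03 in control and 7.78 in HFD, and 2 HFD H3K4me3 intervals overlapped it, the stronger of which was 340 bp wide. HFD H3K27me3 was listed there with 723 bp and a fold enrichment of 3.61. A single interval overlapped it in each histone list, with total H3 intervals of 1341 bp in control and 1344 bp in HFD and pan H4 intervals of 1320 and 1359 bp. These 4 members were ranked on their control value, so a lower HFD value is part of that choice.

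The 3 members nearest to the median in width and strength differed in the other lists. At chr1:177860633-177861373, 741 bp wide, H3K4me3 was 3.58 in control and 3.85 in HFD, pan H4 was 4.02 and 9.25 and total H3 was 8.06 and 8.74. At chr4:4313253-4313993 H3K4me3 had the same fold enrichments as at that member, but total H3 was listed in HFD only (5.17) and H4K16Ac in control only (3.99). At chr1:64480870-64481612 H3K4me3 was 3.58 in control and 4.37 in HFD, and HFD H3K27me3 was present at 3.49 with a −log10 q of 1.47. At all 3 of these members the HFD fold enrichment was higher for pan H4 and total H3 than for H3K4me3, each against the background of its own list.

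The highest −log10 q of HFD H3K27me3 over a member, 11.1, belonged to a 3662 bp interval over chr1:11905684-11906558, 594 bp from control H3K27me3. Fold enrichment was low in every list there, 1.49 and 1.98 for H3K4me3 in control and HFD and 2.39 for HFD H3K27me3, while the −log10 q of HFD pan H4 was 158.0. At chr2:161580477-161581596, 2231 bp from control H3K27me3, the HFD H3K27me3 fold enrichment was 4.69 with a −log10 q of 5.19, and H3K4me3 was 4.29 in control and 2.71 in HFD. At chr2:38391698-38392461, 103028 bp from control H3K27me3, HFD H3K27me3 was 5.49 with a −log10 q of 4.27, and H3K4me3 was 5.99 and 7.04. Only the last of these lay far from control H3K27me3.

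The members under the widest control H4K16Ac intervals were weak in H3K4me3. The widest, of 10478 bp, lay over chr10:105302062-105302744, where H4K16Ac was 2.01 and H3K4me3 was 2.19 in control. The HFD H4K16Ac interval there was 5352 bp wide. The others, of 8513 bp over chr20:4303126-4303800 and 8361 bp over chr20:6952824-6953875, were 3326 and 3659 bp wide in HFD. These members were picked for their control width. The widest member in none of the 6 lists of H4K16Ac, pan H4 and total H3 was chr7:122018510-122019905, 1396 bp with 2 summits, and its H3K4me3 was 4.80 in control and 5.28 in HFD.

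The members were spread over the chromosomes in proportion to H3K4me3. Their share of the distinct control H3K4me3 intervals ran from 4.44% on chromosome 20 to 5.55% on chromosome 16 and was 5.20% on the X chromosome, and 99.1% of them lay on chromosomes 1 to 20, X and Y. Among the autosomes the share of members with HFD H3K27me3 ran from 19.9% on chromosome 13 to 27.8% on chromosome 19, and was 23.2% (95% Wilson interval 22.1% to 24.4%) over all of them. On the X chromosome it was 35.8% (28.2% to 44.1%, 49 of 137 members), and on the Y chromosome 0 of 3 members had it, too few for a share. All control H3K4me3 intervals showed the same, with 35.9% (34.1% to 37.7%) on the X chromosome and 26.6% (26.4% to 26.9%) on the autosomes, so that the higher share on the X chromosome was not specific to the members.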

How the data were processed

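The files were the authors' MACS2 peak lists, 1 per antibody and diet from its 3 libraries, made after alignment to rn6 with Bowtie2 at options not given in the sources used here (nor is the use of an input). Each deposited list gives a score (10 times the −log10 q), a fold enrichment (a ratio to the local background, with 1 added to both) and −log10 p-values and q-values by the authors. Intervals with several summits were counted once, with the strongest summit. The members, sets and limits were chosen with earlier results of these data known.

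Computed here were overlaps of at least 1 bp, distances, coverage in 50 bp steps to 2500 bp around the summit, and HFD over control ratios of the overlapping interval with the highest −log10 p, called past 1.5-fold, with pandas 2.3.3, numpy 2.4.6 and scipy 1.17.1 under Python 3.11.15, and drawn with matplotlib 3.10.9. Shares have 95% Wilson intervals for counting error only. The interval functions were tested on simulated data and gave the per-base count for 300 of 300 intervals. The background pileup was solved from the most frequent fold enrichment and its p.

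The 3 comparison sets each differ from the members in 1 part of the rule: with control H3K27me3, without HFD H3K4me3, or narrower than 600 bp. Named members followed a rule: the 4 highest in control H3K4me3 fold enrichment, the 3 closest to the median in it and in width, the 3 with the highest −log10 q of HFD H3K27me3, the 3 under the widest control H4K16Ac and the widest in none of the lists of H4K16Ac, pan H4 and total H3. Gene names and bases of rn6 were not used here, since the tables at hand describe another assembly. Alternatives were a −log10 q of at least 5, a q of at most 0.05 (chosen after seeing the data), 50% overlap, lists of equal length, main chromosomes only, a 2500 bp margin to H3K27me3 and the rule with the diets exchanged.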

Additional observations from a re-analysis of the deposited data

How the results depend on the processing

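Of 58 values under alternatives, 22 kept to the main value, 34 moved and 2 turned. Restricted to chromosomes 1 to 20, X and Y, or to members with no control H3K27me3 within 2500 bp, all 10 results stayed. With a −log10 q of at least 5 for H3K4me3 in both diets, 349 members were left, of which 47.3% had HFD H3K27me3, 99.7% control and 99.4% HFD H4K16Ac, 99.7% control and 99.7% HFD pan H4, and 99.1% control and 99.1% HFD total H3. Their width ratio was 0.861 and their fold ratio 0.996. With HFD H3K4me3 covering 50% of the member, 3494 members were left. With 50% of the member covered by the other list, HFD H3K27me3 fell to 11.5%, control and HFD H4K16Ac to 89.98% and 90.3%, pan H4 to 81.5% and 86.2%, and total H3 to 76.4% and 76.5%. At a −log10 q of at least 5 in the other list these were 0.0367% for HFD H3K27me3, 28.04% and 31.9% for H4K16Ac, 52.4% and 81.9% for pan H4, and 58.3% and 61.1% for total H3. At a q of at most 0.05, added after seeing the data, they were 4.31%, 91.7% and 92.3%, 90.6% and 94.6%, and 88.0% and 89.9%. The HFD total H3 list shortened to the length of the control list gave 90.8%. With the diets exchanged in the rule, 66.2% of the intervals had H3K27me3 of the other diet, the width ratio turned to 1.10 and the fold ratio to 1.00. Over all control H3K4me3 intervals, HFD H3K27me3 had 0.563% at a −log10 q of at least 5 and 9.47% at a q of at most 0.05. At a −log10 q of at least 5, control H4K16Ac overlapped 1530 of 5457 members and 33224 of 113056 control H3K4me3 intervals. The HFD counts were 1741 and 36686, so the members were not above the background for H4K16Ac at this limit. For control pan H4 the counts were 2857 and 51818, with the members above the background. At a q of at most 0.05 the control H4K16Ac counts were 5005 and 88062, and the members were above the background. For the remaining limits and lists the members were not compared with the background. Stricter thresholds hold fewer peaks by construction, and the cause of the other changes was not tested.

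No paired analysis was possible because the 3 libraries of an antibody and diet share 1 list, which also kept single libraries from being left out. HFD H3K27me3 had the lowest background pileup recovered from the peaks, 39.9% of that of control, and read depth itself was not measured.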
